A study of Mus musculus with 52 samples.

Results

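Glutathione S-transferases (GSTs), UDP-glucuronosyltransferases (UGTs) and cytosolic sulfotransferases (SULTs) were followed through wild-type mice and mice lacking the Tug1 locus. The members were all protein-coding genes whose symbol starts with Gst followed by a, m, o, p, k, t or z, or with Ugt or Sult followed by a digit. This gave 60 of 20138 protein-coding genes in the deposited tables: 22 GSTs, 19 UGTs and 19 SULTs. The testes table listed 56 of them, liver 51, spleen 42, eyes 36, heart 34, prostate 33, brain 31 and mouse embryonic fibroblasts (MEFs) 26. In all, 23 members were listed in all 8 tissues and 8 in 1 tissue.

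RNA was sequenced from male tissues, with 46 samples of the series behind the tables. Testes groups held 4 wild-type, 4 Tug1-/- and 3 rescue samples. Prostate groups held 3 wild-type and 2 Tug1-/- samples, and spleen, liver, heart, eyes and MEFs 3 of each genotype. The brain means came from libraries outside this series, and 6 samples of F1 hybrid testes were not analysed here. Tug1-/- mice carry the tm1.1Vlcg allele, a lacZ knock-in that deletes the locus beyond exon 1. The other organs and MEFs came from a C57BL/6J and 129S6 mixed background, N3 to C57BL/6J, without the neomycin cassette (Neo). In testes the wild type was C57BL/6J without Neo, whereas knockout and rescue animals were C57BL/6J and carried both Neo and lacZ, so Neo and genotype cannot be told apart there. The authors' methods differ on this point, since they describe a knockout colony expanded from mice without Neo. Rescue mice were Tug1-/- and also carried a randomly integrated Tug1 transgene, which lacks part of the 5′ region, and the CAGs-rtTA3 driver, under doxycycline. MEFs were grown from littermate embryos and used at passage 2, and ages of the adult animals are not given in the labels used here.

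Conjugation makes small fat-soluble compounds soluble so that they can leave the cell. GSTs join the tripeptide glutathione to reactive electrophiles, UGTs add glucuronic acid or another sugar from a UDP-sugar, and SULTs add sulfate from the donor PAPS. The liver is the main organ of this chemistry, while single isoforms are known for work elsewhere, such as Ugt8a in the making of myelin lipid and Sult1e1 in the inactivation of estrogen.

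Levels are the authors' means per group in TPM, a share of all transcripts scaled by gene length, so levels of different genes can be set side by side. Where values stand together without a label, wild type comes first, then Tug1-/- and, in testes, rescue. The tables hold no value of a single sample. The authors' own p-values were left unused, and no spread or test could be computed from means alone, so each ratio is a description of 2 group means. Tug1 itself checked the labels: its knockout mean was 0.0825% to 0.512% of the wild-type mean in the 7 tissues other than testes. Wild-type, Tug1-/- and rescue testes held 40.1, 0.885 and 1.60 TPM of Tug1. Tissue markers were high in their own tissues, with a summed level of 125026 TPM for 5 hepatocyte genes in wild-type liver and 51919 TPM for 5 spermatid genes in wild-type testes.

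Most members sit beside relatives in the genome. On GRCm38, 50 of the 60 lay in 12 clusters and 10 stood alone. The 7 mu class GSTs occupied 149 kb at chr3:107895821-108044894, the 8 members of UGT family 1 shared 165 kb at chr1:88055388-88220002, and the 8 members of family 2 spread over 534 kb at chr5:86889767-87424203. Family 1 is built from alternative first exons spliced to common later exons. In GENCODE vM21, 50.3% to 60.6% of the exonic bases of each family 1 gene lay on the same strand in an exon of another gene, so the split of its reads between members is uncertain. Of all words of 100 bases, about a read length, in Ugt1a1 transcripts, 22.6% occurred in no other gene. The share was 41.5% in Ugt1a9, 53.1% in Gstp2, 19.4% in Gsta1 and 74.9% in Gstp1, and all words were unique, when rounded, in 31 of the 60 members. Of the exonic bases of Gstm5, 13.9% lay opposite exons of 4933431E20Rik, and without a stated strand setting the reads of the 2 genes there cannot be told apart.

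Of the 20 members with over 90% of their wild-type level in liver, 18 could be matched by symbol to a RefSeq promoter (GRCm38.p6, 250 bases before to 50 after the start), and 53 of all 60 members could. The bases before the start are shown for 3 of them, because they carry 1 motif at nearly the same place and are nearly confined to liver. Sequences run 5′ to 3′ on the strand of the gene. Capitals mark AGGTCA, a half-site of nuclear receptors (Ugt2b5 at chr5:87140341-87140490, Ugt2b36 at chr5:87092556-87092705 and Ugt2b38 at chr5:87424204-87424353, all minus strand).
Ugt2b5: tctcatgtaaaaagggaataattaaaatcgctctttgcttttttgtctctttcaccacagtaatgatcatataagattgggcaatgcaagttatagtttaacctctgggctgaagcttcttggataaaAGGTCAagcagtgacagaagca
Ugt2b36: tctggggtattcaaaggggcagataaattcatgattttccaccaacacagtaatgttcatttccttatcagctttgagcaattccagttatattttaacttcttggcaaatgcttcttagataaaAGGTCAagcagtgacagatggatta
Ugt2b38: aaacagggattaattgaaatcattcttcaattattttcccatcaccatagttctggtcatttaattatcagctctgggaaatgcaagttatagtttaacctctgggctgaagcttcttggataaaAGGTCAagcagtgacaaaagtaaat

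AGGTCA occurred in 12 of 53 member promoters (22.6%), against 18.1% of all symbols, and in 8 of the 18 liver-confined members. In Ugt2b5 it began at position -22 from the start and in Ugt2b36 and Ugt2b38 at -25, and the longest run common to the Ugt2b5 and Ugt2b36 sequences above, 24 bases, holds it. The core of the antioxidant response element, TGACNNNGC, was present in 3 of 53 member promoters (Gsta3, Gstm5 and Gstm7) and in 3781 of all 27025 symbols. That of the xenobiotic response element, GCGTG, was present in 11 of 53, against 35.2% of all. Both strands were searched, motifs and the promoters shown were chosen with levels and matches known, and neighbouring members share descent, so these shares are descriptions.

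Liver held the most conjugation RNA. The members summed to 14051 TPM in wild-type liver, 5376 TPM in testes and 4516 TPM in eyes, and to between 498 and 1929 TPM in the other tissues. In wild-type liver 42 members reached 1 TPM and 20 reached 100 TPM, against 1 that reached 100 TPM in spleen. The superfamilies differed in how they were spread. GSTs made up 51.6% of the liver sum and between 92.9% and 98.9% of the sum in testes, eyes, heart, MEFs, prostate and spleen. UGTs were 38.0% of the liver sum, 5.07% in brain and at most 0.801% elsewhere. SULTs were 34.4% of the sum in brain and 10.4% in liver.

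**Figure D1:**
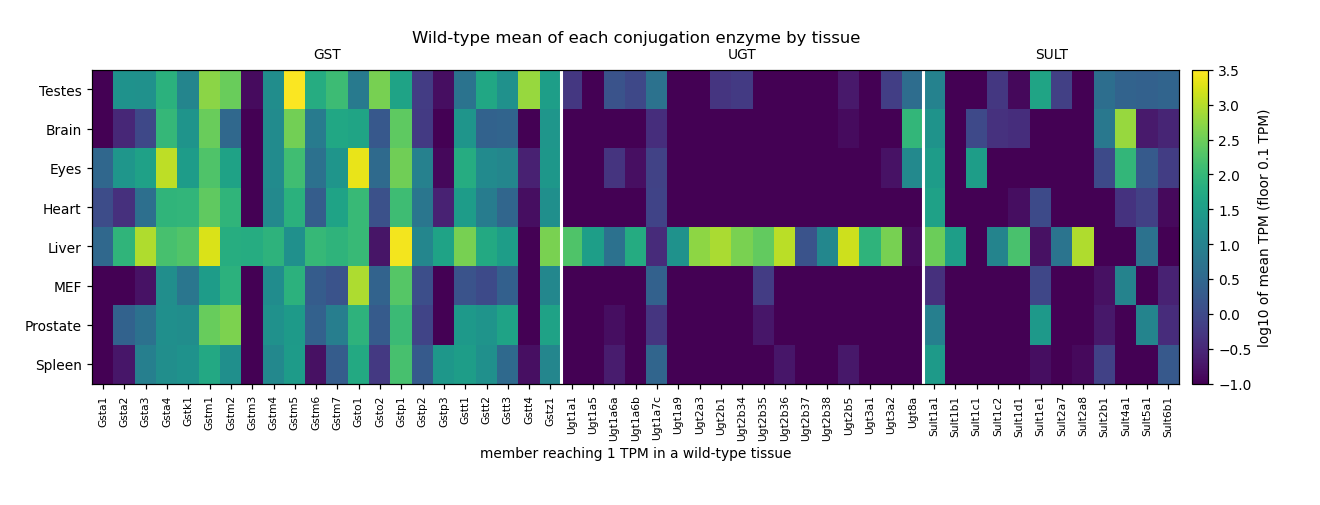
Wild-type mean of every member that reached 1 TPM in a wild-type tissue (columns, grouped by superfamily) in 8 tissues (rows), as log10 TPM with a floor of 0.1 TPM. The UGT block is bright almost only in the liver row, while most GSTs are seen in every row.

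Of the 51 members that reached 1 TPM in a wild-type tissue, 35 were highest in liver, 7 in testes and 3 each in brain, eyes and prostate. The highest tissue was the same in the knockout means for 51 of 51. Over 90% of the summed wild-type level lay in 1 tissue for 14 of 17 UGTs, 5 of 12 SULTs and 4 of 22 GSTs. The UGTs with the largest shares were Ugt1a9 (19.6 TPM in wild-type liver), Ugt2b38 (12.2 TPM) and Ugt2b36 (1079 TPM), each with practically its whole level in liver. The SULTs were Sult2a8, which sulfates bile acids in the mouse, at 937 TPM, Sult1d1, which acts on catecholamines, at 160.5 TPM, and Sult1b1, which acts on thyroid hormone, at 33.1 TPM, all with at least 99.5% in liver. Among GSTs, Gstt4 had 99.9% and Gsto2 96.9% of their level in testes, and Gstm3 had 99.6% in liver.

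Neighbours in 1 cluster were often highest in different tissues. Within the mu cluster on chromosome 3, Gstm5 had its highest wild-type mean in testes (2984 TPM), Gstm1 in liver (1773 TPM) and Gstm2 in prostate (405 TPM). The omega pair on chromosome 19 split in the same way, with Gsto1 at 2274 TPM in eyes against 7.18 TPM in testes, and Gsto2 at 3.62 TPM in eyes against 382 TPM in testes. Gsto1 is a thioltransferase that also reduces dehydroascorbate. In the theta cluster on chromosome 10, Gstt1 was highest in liver (382 TPM), Gstt3 in prostate (41.0 TPM) and Gstt4 in testes (631 TPM). Of UGTs, Ugt8a, the galactosyltransferase of myelin lipid, stood out with 97.3 TPM in brain and 12.9 TPM in eyes, and of SULTs Sult4a1, a brain isoform with no well-known substrate, with 633 TPM in brain and 95.1 TPM in eyes. Gstk1, the enzyme of mitochondria and peroxisomes, was found in every tissue, with 5.86 TPM in MEFs as its lowest and 191 TPM in liver as its highest wild-type mean. Gstz1, which also serves tyrosine breakdown, reached 388 TPM in liver and was lowest at 11.7 TPM in spleen.

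Most members differed between genotypes by less than 1.5-fold. A ratio was read only where the average of the 2 group means was at least 1 TPM, which left 189 pairs of a member and a tissue. Of these, 14 pairs passed 1.5-fold, 9 higher (4.76%) and 5 lower (2.65%) in Tug1-/- samples, against 2.37% higher and 1.83% lower among 104779 such pairs of all protein-coding genes. Past 2-fold were 2 pairs, for which no share of all genes was taken. Pairs of 1 gene or 1 tissue are not independent, so the shares are set side by side without a test. The 14 pairs came from 11 genes, and 3 of these, Gstm5, Gstp2 and Sult5a1, appeared in 2 tissues each. Among the 137 pairs with an average of at least 10 TPM, 9 passed 1.5-fold. The share of all genes at that minimum was not taken, so this count cannot be set against it.

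Without a limit on the fold, a single direction across tissues was uncommon. Of the 26 members with means above 0 in 7 or 8 tissues, 1 had a lower and 1 a higher knockout mean in every one, against 0.795% and 0.889% of 14843 genes. Sult5a1, whose substrates are not well known, was the lower one, in 7 tissues. It had 5.01 and 2.21 TPM in liver, 2.46 and 1.24 TPM in testes, 10.8 and 8.80 TPM in prostate, and 0.718 and 0.456 TPM in heart, and in eyes the wild-type mean of 1.85 TPM was 1.24-fold the knockout mean. In brain (0.211 and 0.159 TPM) and spleen (0.102 and 0.0758 TPM) both means were far below 1 TPM. Gstp1 was the higher one, in 8 tissues, with log2 ratios from 0.03 in eyes to 0.32 in testes (41.0 and 51.1 TPM). Both were singled out after their values were seen.

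**Figure D2:**
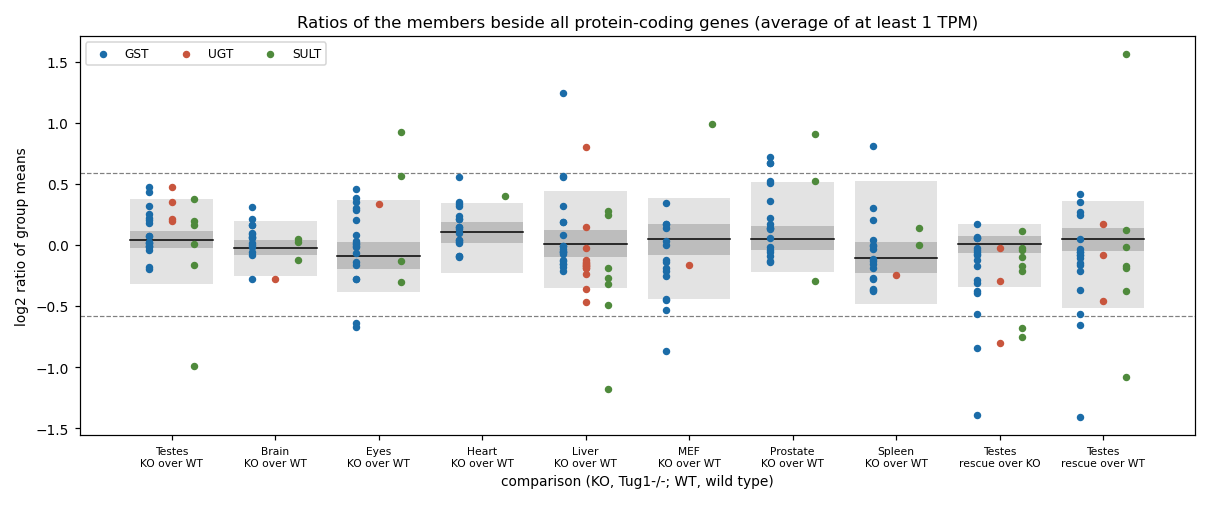
Log2 ratio of group means for each member (points, coloured by superfamily) in 10 comparisons. Dark and light grey bars span the middle 50% and 90% of all protein-coding genes under the same minimum of 1 TPM, the black line is their median, and dashed lines mark 1.5-fold. Most points lie between the dashed lines, with Gstp2 and Sult5a1 in liver and Gsta3 in rescue testes among the points outside them.

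**Figure D3:**
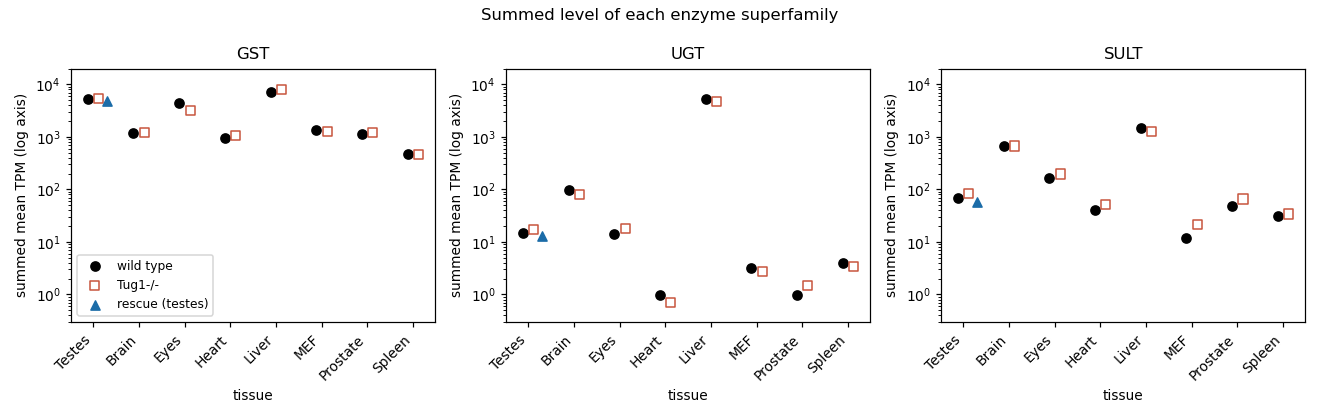
Summed mean TPM of GSTs, UGTs and SULTs (log axis) in 8 tissues for wild type (circles), Tug1-/- (squares) and, in testes, rescue mice (triangles). The groups lie close together in most tissues, and the UGT sum of liver lies above that of every other tissue.

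In liver, the sum over members was level, with wild-type and knockout sums of 14051 and 14066 TPM. Past 1.5-fold, 2 of 42 members were higher and 1 was lower, against 2.62% of all 10719 protein-coding genes higher and 1.75% lower. Gstp2, a class pi enzyme, had a wild-type mean of 11.6 TPM and a knockout mean of 27.4 TPM, a ratio of 2.36 at a mean normalized read count of 269. Its neighbour Gstp1, the member with the highest level, had 2676 and 3327 TPM, a log2 ratio of 0.31, and the pair shares sequence as given above. Ugt1a9 had 19.6 and 34.2 TPM (ratio 1.75), whereas Ugt1a1, which glucuronidates bilirubin and shares its later exons, had 186 and 166 TPM. Sult5a1 went the other way, with 5.01 TPM in wild-type liver and 2.21 TPM in Tug1-/- liver (2.26-fold lower). Gstm3, at 61.7 and 91.4 TPM, and Gsta1, at 3.34 and 4.91 TPM, lay just inside the limit.

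Counted on both sides of that limit, the liver members leaned to lower values in Tug1-/- mice. Of 42 members 31 had a lower knockout mean, with a median log2 ratio of -0.13, while 53.0% of all genes had a higher one and their median was 0.01. The lean was seen in 13 of 15 UGTs (median -0.16), 5 of 7 SULTs (median -0.28) and 13 of 20 GSTs (median -0.04). The UGT sum was 5339.8 TPM in wild-type liver and 4714 TPM in Tug1-/- liver. Ugt2b5 had 1438 and 1274 TPM, Ugt2b36 1079 and 978 TPM, Ugt2b1 835 and 651 TPM, and Ugt2a3 539.8 and 529 TPM. Ugt3a2, of the small family that uses other UDP-sugars, had 384 and 336 TPM. Sult2a8 had 937 and 668 TPM, a log2 ratio of -0.49. The GST sum was higher, with 7246 TPM in wild-type liver and 8076 TPM in Tug1-/- liver, with both leading members higher in Tug1-/- mice (Gstm1 1773 and 2016 TPM, Gstp1 as above). Gsta3, the main alpha class member, had 933 and 885 TPM. A lean was not particular to liver. In MEFs 35.3% of members had a higher knockout mean, against 59.8% of all genes. Brain (68.4% against 38.9%) and eyes (54.2% against 28.2%) went the other way, while testes, heart, prostate and spleen lay nearer to all genes. In testes 17.2% of members were higher in rescue than in Tug1-/- mice, against 53.9% of all genes.

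Several liver markers differed alongside. The 5 hepatocyte markers summed to 125026 TPM in wild-type liver and 132563 TPM in Tug1-/- liver, and the 7 male-biased markers to 9814 and 11259 TPM, with none past 1.5-fold in either list. The median log2 ratio of the male-biased markers was -0.10, so most of them were lower although their sum was higher. Of the female-biased markers, Cyp2a4 had 1.64 and 108 TPM, Cyp2b9 7.32 and 1.25 TPM, and Acot3 16.9 and 5.78 TPM, so they differed in direction. The 6 pericentral markers summed to 11153 and 9129 TPM and the 5 periportal ones to 4111 and 4998 TPM. Of these, 1 periportal marker was higher past 1.5-fold and no pericentral marker passed it. Macrophage markers summed to 193 and 278 TPM, with 1 of 6 past 1.5-fold (Adgre1) and the other 5 higher within it. Of the fat markers, Car3, which hepatocytes also express, had 3986 and 2391 TPM, and no other was above 1 TPM. The part of these differences in the values of the members was not tested.

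In eyes, the 2 most abundant members were lower in Tug1-/- mice. Gsto1 had a wild-type mean of 2274 TPM and a knockout mean of 1431 TPM (1.59-fold lower), and Gsta4, which removes the lipid peroxidation product 4-hydroxynonenal, had 1121 and 721 TPM (1.56-fold lower). The GST sum was 4339.6 and 3177 TPM. Sult1c1 was higher, with 31.9 and 60.5 TPM (ratio 1.89), and Sult1a1, a phenol sulfotransferase, was just inside the limit at 30.8 and 45.5 TPM. Thus 2 of 24 members were lower and 1 higher, against 1.59% and 2.70% of all 15076 genes. The median log2 ratio of all genes was itself -0.09 in eyes, and 28.2% of them had a higher knockout mean. Divided by that median, Gsto1 (log2 ratio -0.58) and Gsta4 (-0.54) lay inside the limit and Sult1a1 (0.65) passed it, which left 0 members lower and 2 higher. Gstp1 (333 and 339.5 TPM), Gstm5 (133 and 134 TPM) and Sult4a1 (95.1 and 86.9 TPM) hardly differed, while Gstm1 had 179 and 234 TPM.

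**Figure D4:**
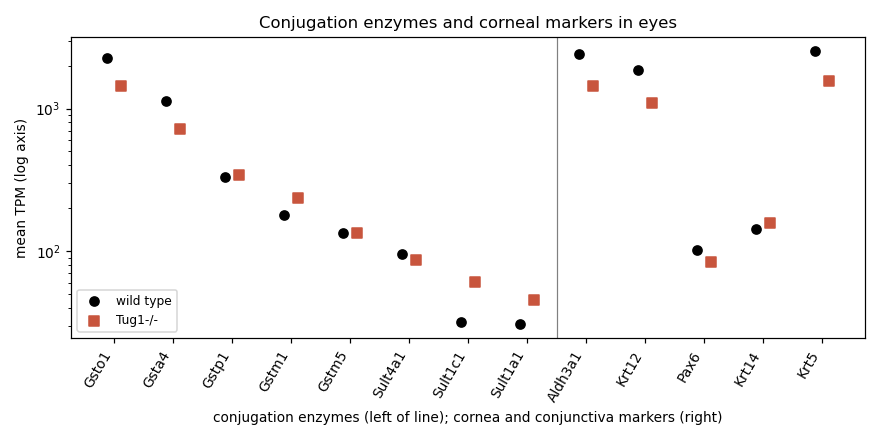
Mean TPM (log axis) of conjugation enzymes and of cornea and conjunctiva markers in wild-type (circles) and Tug1-/- (squares) eyes. Gsto1 and Gsta4 are lower in Tug1-/- eyes, as are Krt12, Krt5 and Aldh3a1, while Krt14 is slightly higher.

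Most corneal markers were lower as well. Krt12, the keratin of the corneal epithelium, had means of 1872 TPM (wild type) and 1085 TPM (Tug1-/-), Krt5 had 2538 and 1558 TPM, and the crystallin-like enzyme Aldh3a1 had 2395 and 1443 TPM. Pax6 had 102 and 83.8 TPM and Krt14 142 and 157 TPM, so 3 of the 5 markers passed 1.5-fold, and the list summed to 7049 and 4326 TPM. Fat markers summed to 334 and 1032 TPM, with 4 of 5 higher and Ucp1 lower, and erythroid markers to 590.2 and 1817 TPM. Of the 5 cardiac muscle markers, which summed to 267 and 486 TPM, 4 were above 1 TPM and 2 of these were higher (Actc1 and Myl2). The 5 lens markers and the 5 rod markers had no member past 1.5-fold. The part of the tissue make-up in the values of Gsto1, Gsta4 and Sult1c1 was not tested, and in bulk tissue fewer cells of a type and less RNA per cell cannot be told apart.

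In testes, 3 of the most abundant members were nearly level across the 3 groups. Gstm5 had 2984 TPM in wild type, 2894 TPM in Tug1-/- and 2812 TPM in rescue mice. Gstt4 had 631, 639.5 and 606 TPM, and Gsto2, a dehydroascorbate reductase, had 382, 380.0 and 373 TPM. The 5 elongating spermatid markers summed to 51919, 49228 and 47996 TPM. Against wild type, 0 of 28 members were higher and 1 was lower in Tug1-/- testes, against 2.00% and 2.96% of all 15047 genes. The lower member was Sult5a1, with 2.46 TPM in wild type, 1.24 TPM in Tug1-/- and 1.16 TPM in rescue mice. Below the limit, Gsta4 had 74.8, 104 and 100.1 TPM, and Gstm1 527, 598 and 334 TPM. Class sums were 5293, 5385 and 4849 TPM for GSTs, 68.0, 82.5 and 56.9 TPM for SULTs, and 14.6, 17.5 and 12.9 TPM for UGTs.

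Rescue testes were also set against Tug1-/- testes. There, 5 of 29 members (17.2%) were lower in rescue mice and 0 higher, against 2.31% and 0.121% of all 14861 genes. Gsta3 had 19.0 TPM in wild type, 18.8 TPM in Tug1-/- and 7.15 TPM in rescue mice, so the rescue mean stood below both others. The rescue mean of Gstm1, 334 TPM as given above, was likewise the lowest of the 3. Sult1e1, the estrogen sulfotransferase, had 42.4, 55.1 and 32.6 TPM, Ugt1a7c 5.07, 6.45 and 3.69 TPM, and Sult2a7 0.716, 1.26 and 0.788 TPM. Gstm2 lay just inside the limit with 294, 338 and 228 TPM.

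Compared with wild type, 3 of 28 members were lower in rescue testes (Gsta3, Sult5a1 and Gstm1) and 1 was higher, against 4.47% and 1.60% of all 14950 genes. The higher one was Sult2a4, at 0.526 TPM in wild type, 1.43 TPM in Tug1-/- and 1.55 TPM in rescue mice. It passed the minimum of 1 TPM only through its rescue mean. In Tug1-/- against wild type its average of 0.978 TPM fell under that minimum, so it was not read there. Each pair of these 3 comparisons shares a group, so they are not independent of each other. Whether the wild-type and Tug1-/- groups also had doxycycline is not given in the sources used here, and its part in these values was not tested.

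**Figure D5:**
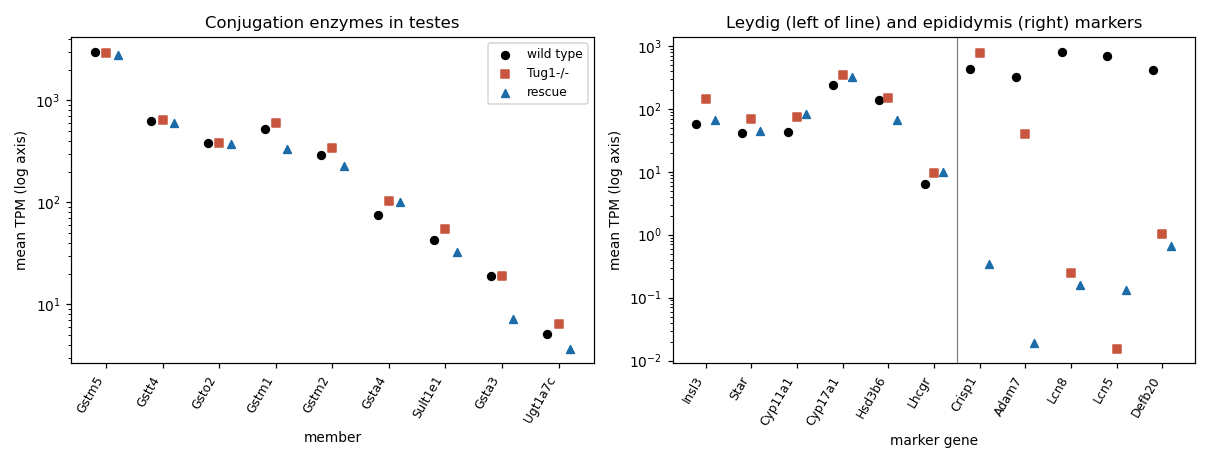
Mean TPM (log axis) of conjugation enzymes (left panel) and of Leydig and epididymis markers (right panel) in wild-type, Tug1-/- and rescue testes. Gstm5, Gstt4 and Gsto2 lie level across the groups, Gstm1, Gsta3 and Sult1e1 are lowest in rescue, and the 5 epididymis markers range over several powers of 10.

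Markers of other cells differed between the 3 testes groups as well. The 5 epididymis markers summed to 2641 TPM in wild type, 802 TPM in Tug1-/- and 1.32 TPM in rescue mice. Lcn8 had 799, 0.244 and 0.160 TPM, and Crisp1 had 427, 760.5 and 0.348 TPM. Of the 6 Leydig markers, Insl3 had 56.9, 144 and 65.5 TPM, Star 41.5, 68.7 and 44.5 TPM, Hsd3b6 136, 147 and 67.1 TPM, and Cyp11a1 43.2, 75.5 and 83.0 TPM. The list summed to 519, 786 and 585 TPM. The 6 Sertoli markers summed to 177, 245 and 276 TPM, with none past 1.5-fold in Tug1-/- and 3 higher in rescue testes than in wild type (Amh, Cldn11 and Rhox5). The 6 macrophage markers summed to 62.3 and 79.4 TPM in the first 2 groups, with 3 higher in rescue than in wild type, all of complement C1q. Fat markers summed to 33.2, 48.4 and 37.1 TPM, and 3 of the 4 above 1 TPM were higher in Tug1-/- than in wild type. Whether adhering epididymis or fat, or the share of Leydig cells, Sertoli cells or macrophages, takes part in the values of Gstm1, Gsta3, Sult1e1 and Sult5a1 was not tested. It could not be rerun without the libraries concerned, because only means are held.

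In prostate, 4 of 21 members were higher in Tug1-/- mice (19.0%) and 0 lower, against 4.07% and 0.521% of all 12487 genes. Sult1a1 had 8.76 TPM in wild-type prostate and 16.4 TPM in Tug1-/- prostate (ratio 1.87). Gstm5 had 28.2 and 46.4 TPM, Gsta3 4.80 and 7.63 TPM, and Gstp2 0.836 and 1.33 TPM at a mean normalized read count of 10.4. With 1 TPM added to both means, Gsta3 and Gstp2 lay inside the limit, which left 2 members higher. Sult1e1, at 27.5 and 39.5 TPM, stayed inside the limit, as did the leading members Gstm2 (405 and 421 TPM), Gstm1 (287 and 316 TPM) and Gstp1 (117 and 129 TPM). Fat markers summed to 119 TPM in wild-type prostate and 579 TPM in Tug1-/- prostate, with 4 of 4 above 1 TPM higher. Macrophage markers summed to 154 and 233 TPM, with 4 of 6 higher. Of the 6 seminal vesicle genes, Svs2 and Svs5 were also higher, at 10039 and 30715 TPM for Svs2. The other seminal vesicle genes stayed within 1.5-fold, and the median log2 ratio of that list was 0.03. Erythroid markers summed to 141 and 257 TPM, with 2 of 3 above 1 TPM higher, and of the 6 prostate epithelium markers 1 was lower (Spink1). The Tug1-/- means rest on 2 samples, and the part of fat, macrophages, blood or seminal vesicle in the ratios of the members was not tested.

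In spleen, 1 of 19 members was higher and 0 lower, against 4.43% and 2.68% of all 13076 genes. This was Gstm5, with 29.7 TPM in wild-type spleen and 52.0 TPM in Tug1-/- spleen (ratio 1.75). Gstp1, the leading member, had 156 and 160.3 TPM, Gsto1 54.8 and 54.7 TPM, Gstm1 52.9 and 46.4 TPM, and Gstt1 32.4 and 26.9 TPM. The 4 erythroid markers were all higher, from 19737 to 35593 TPM in sum. The 6 pancreas markers summed to 73.4 and 8207 TPM, and Alb had 16.4 TPM in wild-type spleen and 0.0843 TPM in Tug1-/- spleen. The part of these cells in the value of Gstm5 was not tested.

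In MEFs, 1 of 17 members was higher and 1 lower, against 1.57% and 2.98% of all 12105 genes. Sult4a1 had 10.2 TPM in wild-type MEFs and 20.3 TPM in Tug1-/- MEFs (ratio 1.99), and Gstm6 had 2.04 and 1.12 TPM, which lay inside the limit with 1 TPM added to both means. Gsto1, the leading member there, had 901 and 828 TPM, Gstp1 203 and 229 TPM, Gstm5 78.4 and 57.8 TPM, and Gstm2 77.5 and 77.4 TPM. The 5 fibroblast markers summed to 11324 and 10647 TPM, with none past 1.5-fold.

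In heart, 0 of 19 members passed the limit in either direction, against 1.06% of all 12095 genes higher and 1.24% lower. Gstm1 had 251 TPM in wild-type heart and 290.4 TPM in Tug1-/- heart, Gstp1 125 and 145 TPM, Gsto1 108 and 109 TPM, Gstk1 90.2 and 96.4 TPM, and Gstm2 88.3 and 110.2 TPM. Heart was a tissue in which the median of all genes was itself shifted, by a log2 ratio of 0.11, and 77.4% of all genes had a higher knockout mean. Hence 16 of 19 members with a higher mean became 11 of 19 when set against that median. In spleen the median of all genes was -0.11.

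In brain, 0 of 19 members passed the limit, against 0.607% higher and 0.854% lower among all 14174 genes. Sult4a1 had 633 TPM in wild-type brain and 644 TPM in Tug1-/- brain, Gstm5 346 and 367 TPM, Gstm1 291 and 305 TPM, Gstp1 238 and 254 TPM, and Gsta4 101 and 101 TPM. Ugt8a had 97.3 and 80.3 TPM.

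The genes around conjugation were read from a list of 50: synthesis, recycling and breakdown of glutathione, membrane and prostaglandin transferases, supply of the glucuronic acid and sulfate donors, export, and regulators. Over the 8 tissues, 26 of 319 pairs of a list gene and a tissue passed 1.5-fold, 21 higher (6.58%) and 5 lower (1.57%) in Tug1-/- samples, against 2.37% and 1.83% of the pairs of all genes. Of these, 15 fell on the 16 genes for synthesis, recycling and breakdown of glutathione, out of 106 pairs. Chac1, which cleaves glutathione in the cytosol, was higher in 3 tissues, at 1.97 and 5.49 TPM in liver, 24.7 and 65.6 TPM in prostate, and 1.17 and 1.77 TPM in spleen. Its relative Chac2 had 23.4 and 37.4 TPM in spleen. Nat8 acetylates cysteine conjugates, the last step to mercapturic acids. It had 32.1 and 50.3 TPM in liver, and in testes 9.57 TPM in wild type, 16.5 TPM in Tug1-/- and 8.23 TPM in rescue mice. Its relative Nat8f5 was higher in testes (2.30 and 4.78 TPM, with 2.13 TPM in rescue), eyes (0.480 and 1.64 TPM) and liver (4.81 and 8.49 TPM), but lower in brain (5.19 and 1.01 TPM). Ggt1, the surface enzyme that opens glutathione conjugates, had 7.20 TPM in wild-type testes, 1.45 TPM in Tug1-/- testes and about 1 TPM in rescue testes. Epididymis markers differed between these groups too, as given above, and the part of adhering epididymis in the Ggt1 values was not tested. In prostate Ggt1 had 36.4 and 56.7 TPM. Ggt5 (0.886 and 1.41 TPM) and the dipeptidase Dpep1 (8.08 and 13.4 TPM) were also higher in prostate. Nat8f5 in eyes and Ggt5 in prostate had wild-type means below 1 TPM and passed that minimum only through their Tug1-/- means. Chac1 in spleen lay close to the limit of 1.5-fold. The counts of list genes were not repeated with another minimum or limit, so their shares are descriptions.

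The remaining differences were scattered over steps. In spleen, Gclm, the regulatory subunit of the first enzyme of glutathione synthesis, had 26.8 and 47.1 TPM. The membrane-bound Mgst3 had 51.1 and 91.9 TPM, and the sulfate transporter Slc26a1 1.52 and 3.16 TPM, in the same tissue. Erythroid markers were higher in spleen as well, and their part in the values of Gclm, Mgst3 and Slc26a1 was not tested. In prostate, Mgst1 had 22.7 and 38.2 TPM and Ltc4s, leukotriene C4 synthase, 2.06 and 3.39 TPM, while Ltc4s in eyes had 2.40 and 4.39 TPM. Ugp2, which makes UDP-glucose, had 119.6 and 184 TPM in eyes. Abcc3, an exporter of glucuronides from the liver cell into blood, had 137 and 88.4 TPM in liver. In MEFs the exporter Abcc4 had 5.67 and 9.16 TPM, the prostaglandin D synthase Hpgds 3.11 and 1.80 TPM, and the aryl hydrocarbon receptor Ahr 7.42 and 4.62 TPM. Ppara had 18.1 and 27.4 TPM in heart. In rescue testes, Ptges had 3.08 TPM, against 5.94 TPM in Tug1-/- and 4.81 TPM in wild type, and Abcc4 had 2.11 TPM against 3.55 TPM in wild type. No other regulator on the list, which also names Nfe2l2, Keap1, Nr1i2, Nr1i3, Hnf4a and Rxra, passed 1.5-fold where it could be read. All 9 regulators reached the minimum of 1 TPM in liver, against 4 to 6 in each of the other comparisons.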

How the data were processed

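The authors aligned reads with STAR to GRCm38, counted the uniquely mapped ones on GENCODE vM16 genes with featureCounts, and dropped a gene if no replicate had at least 3 reads. Strand and overlap settings are not given in the sources used here. Per the deposited tables, values are the authors' mean TPM per group. The tables other than testes also hold, as deposited by the authors, a read count normalized for depth and averaged over all samples of a tissue, a signal with no sample split. They hold the authors' own fold changes, statistics, p-values and calls as well, which were not used. Depth per sample is unknown, and so are intervals.

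Members and lists were chosen with earlier results of these data known. Per comparison, the ratio of group means was taken for protein-coding genes with an average of at least 1 TPM and read against 1.5-fold. Named were members past the limit, the 5 highest in a tissue, the leading member of a class, the 3 most confined per superfamily at 10 TPM or more, and list genes past the limit. Members just inside the limit, other liver UGTs, members that share a cluster and motif carriers were named after their values were seen. Shared sequence was measured as words of 100 bases on GENCODE vM21 transcripts, both strands. A further promoter motif was searched and is not reported here. A check of the code for the ratio rule used simulated means with changes of at least 2-fold at 5 TPM or more. Its outcome was set by that design, so it says nothing of calls near 1.5-fold or 1 TPM. Python 3.11.15, pandas 2.3.3, numpy 2.4.6 and matplotlib 3.10.9 were used.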

Additional observations from a re-analysis of the deposited data

How the results depend on the processing

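No paired analysis was possible because the tables hold only group means, and for the same reason no sample could be left out. Dividing by the median ratio of all genes, and leaving out the 9 members with under 50% of their words unique (chosen after seeing the data), kept each of the 10 counts of members past 1.5-fold within 1.5 times, but not always the same genes. Dividing by the median took Gsto1 and Gsta4 out of the calls in eyes and brought Sult1a1 in, so 1 of 3 was shared, and it brought in Gstk1 for rescue over wild type (log2 ratio -0.57 before and -0.62 after). Leaving out members that share sequence took out Ugt1a9 in liver and Ugt1a7c for rescue over knockout. The other settings moved some. A ratio of (mean + 1) gave 1 in MEFs and 2 in prostate. A minimum of 5 TPM gave 0 in testes, 1 in MEFs and 2 for rescue over wild type. With no minimum, the counts were 4 in brain and in MEFs, 7 in heart and in liver, 8 in eyes, 11 in prostate and in spleen, and 15 in testes, with 18 for rescue over knockout and 19 for rescue over wild type, since members near 0 TPM enter. A limit of 2-fold gave 0 in testes, eyes, MEFs, prostate and spleen, and 1 for rescue over knockout. With the highest member left out, the log2 ratio of the SULT sum changed sign in MEFs (0.86 to -0.41), heart (0.34 to -1.14) and liver (-0.20 to 0.20), and that of the UGT sum in brain (-0.27 to 0.49). The sign also turned for the GST sum in MEFs (-0.08 to 0.01) and spleen (0.01 to -0.01) and the SULT sum in brain (0.02 to -0.13) and spleen (0.12 to -0.06). Knockout means in place of wild-type means kept the count of members confined to 1 tissue within 1.5 times.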
